A study of Mus musculus with 2 samples.

Results

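The red-cell microRNA genes are the 5 genes Mir144, Mir451a, Mir451b, Mir486 and Mir3107, taken by their GENCODE M21 symbols from the 2202 microRNA genes of the count tables. They were measured by microRNA sequencing in the left cerebral cortex of B6CASTF1/J mice, a hybrid strain, all male and aged 36 days. The 2 libraries form 1 group, with no treated, mutant or control animals. Replicate 2 comes from the animal numbered 4 and replicate 1 from the animal numbered 3. The labels give a single donor identifier for both, and the separate numbers were taken to mean separate animals. With 1 group there is no contrast between conditions, and what can be asked is how much of each gene the cortex held and how far the libraries differed.

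MicroRNAs are short RNAs cut from hairpin precursors, and they repress messenger RNAs that pair with their seed, the bases 2 to 8 of the mature sequence. Mir144 and Mir451a are neighbours, known to be cut from a single transcript that the erythroid factor GATA1 switches on, and miR-451a builds up to high levels in maturing red cells. Its precursor is unusual in being cut by Argonaute 2 and not by Dicer. Mir486 lies in Ank1, the gene of the membrane skeleton protein ankyrin, and its microRNA is known from red cells and from striated muscle. Red cells reach the cortex in the blood of its vessels. The name red-cell genes rests on this knowledge and not on these libraries, since RNA below 30 bases holds no globin messenger RNA against which to check it. Whether the tissue was cleared of blood is not given in the sources used here.

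Sequences from RefSeq (GRCm38.p6) were at hand for 3 of the 5 genes, Mir144, Mir451a and Mir451b. The mature microRNAs come first, with the seed in capitals, because the seed decides what each of them can pair with.

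miR-451a: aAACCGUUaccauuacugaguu

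miR-144-3p: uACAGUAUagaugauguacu

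miR-144-5p: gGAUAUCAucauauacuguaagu

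miR-451b: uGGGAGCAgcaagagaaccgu

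The 4 seeds differ from each other. Among the 1738 mature microRNAs of the RefSeq table, none from another gene shared any of these seeds over all 7 bases. Over bases 2 to 7 only, miR-101a-3p matched miR-144-3p. The hairpins follow, with the mature sequences in capitals, to show where each is cut from.

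Mir451a hairpin (chr11:78073170-78073241, plus strand): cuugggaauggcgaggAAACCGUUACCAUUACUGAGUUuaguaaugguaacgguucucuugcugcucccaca

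Mir144 hairpin (chr11:78073005-78073070, plus strand): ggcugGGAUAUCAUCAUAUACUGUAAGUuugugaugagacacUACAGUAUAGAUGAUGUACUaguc

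The mature sequences of Mir144 lie on opposite arms of its hairpin, at positions 6 to 28 and 43 to 62 of 66. The single mature sequence of Mir451a takes positions 17 to 38 of 72. In the structure predicted by RNAfold, 17 of its 22 bases were paired, all to bases on the other arm, and it ran on over all 4 bases of the terminal loop. The longest unbroken stem had 17 pairs in Mir451a, against 9 in Mir144. The GC content was 47.2% for Mir451a and 37.9% for Mir144, beside a median of 51.7% over 1005 RefSeq hairpins.

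**Figure D1:**
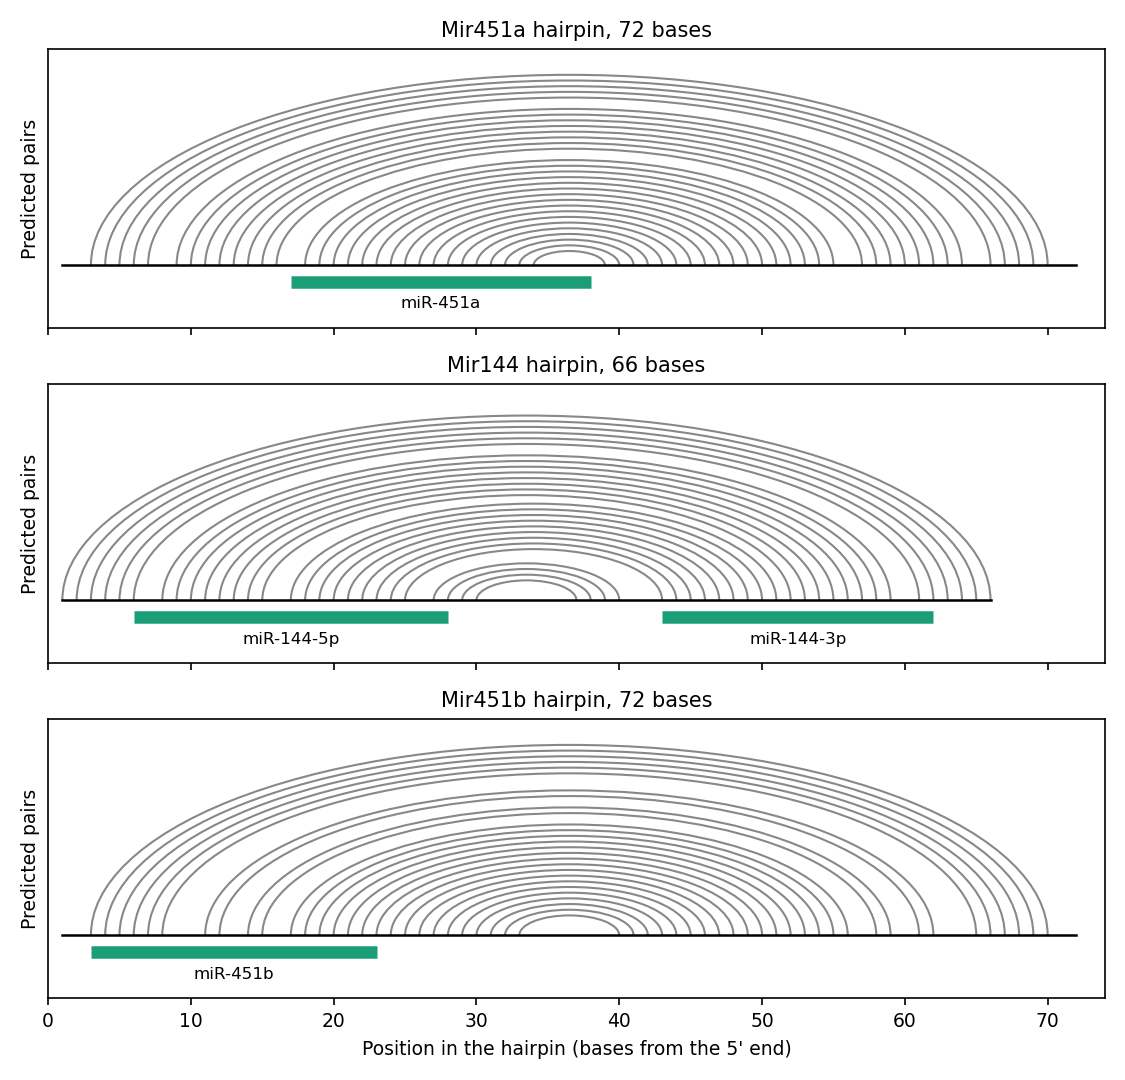
Predicted base pairs (arcs) of 3 hairpins against position in bases from the 5′ end, with the mature microRNAs as green bars. miR-451a covers positions 17 to 38 and reaches across the loop, while miR-144-5p and miR-144-3p stand on separate arms.

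Mir451b is annotated on the minus strand at the same coordinates as Mir451a, so its hairpin is the reverse complement. A hairpin with a long stem resembles its own reverse complement, and the stretch of the Mir451b hairpin most like miR-451a is shown under it. Capitals mark the seed in the upper line and the bases that differ in the lower line.

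miR-451a: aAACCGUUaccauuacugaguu

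Mir451b, chr11:78073204-78073225, minus strand: GaaccguuaccauuacuAaACu

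Of the 22 bases, 18 are equal, and an unbroken run of 16 spans positions 2 to 17. Counted from the 5′ end of miR-451a, the differences are A1G, G18A, G20A and U21C. A full-length miR-451a read therefore has bases that tell the strands apart, and a read of positions 2 to 17 alone does not. None of the 45 distinct 22-base stretches of the Mir144 hairpin, and none of the 51 of the Mir451a hairpin, was found in a RefSeq hairpin of another locus on either strand.

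On chromosome 11, Mir144 and Mir451a lie on the plus strand with 99 bases between them. Apart from Mir451b opposite Mir451a, they overlap no other annotated gene, and Eral1 lies 134 bases beyond Mir451a on the minus strand. On chromosome 8, Mir486 (chr8:23142555-23142682, plus strand) lies in an intron of Ank1. Mir3107 (chr8:23142573-23142662, minus strand), also called mir-486b, lies wholly within the span of Mir486, in an intron of Gm15816, a gene antisense to Ank1. Starts and ends of all 5 genes were equal in GENCODE M21 and in RefSeq.

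**Figure D2:**
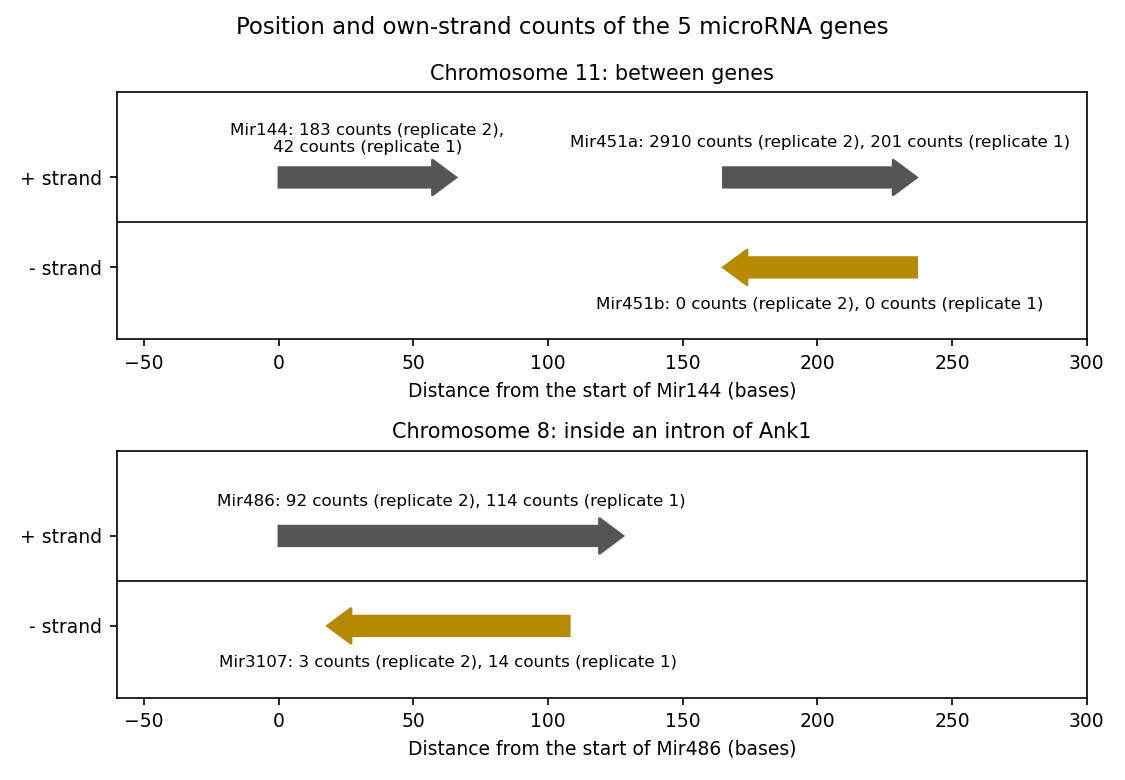
The 5 genes drawn to scale by distance in bases from the start of Mir144 (top) and of Mir486 (bottom), arrows giving the strand, with the own-strand read counts in each library. Mir451b had 0 counts in both libraries opposite the 2910 and 201 of Mir451a.

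Replicate 2 held 11534730 reads, of which 4010274 were counted at microRNA genes on the gene's own strand. Replicate 1 held 11886775 reads, of which 4273791 were so counted. Levels are given in CPM, own-strand counts scaled to 1000000 per library. For a gene without counts the limit is 3 counts, which is 0.748 CPM in replicate 2, against 0.702 CPM in replicate 1. Intervals are exact (Clopper-Pearson, 95%). Reads copied by PCR are not independent molecules where molecular identifiers are not known to have been used, so intervals and limits cover counting error only. Differences were tested across all genes whose counts in the libraries together came to 10 or more, by an exact two-sided binomial test of replicate 2 against replicate 1 with Benjamini-Hochberg adjustment. These tests compare the libraries, not conditions.

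Mir451a, the microRNA of red-cell maturation, had the most assigned reads of the 5 in both libraries. It had 2910 counts in replicate 2, against 201 counts in replicate 1. Its level was 726 CPM (700 to 752) in replicate 2, against 47.0 CPM (40.8 to 54.0) in replicate 1. The intervals lie far apart, and the mean of 386 ± 480 CPM (SD, n = 2) describes neither library. Among the genes with counts Mir451a ranked 111 of 688 in replicate 2 and 234 of 730 in replicate 1. It was 15.9-fold higher in replicate 2 (13.7 to 18.4), a log2 ratio of 3.99 (3.78 to 4.20), with an adjusted p in the exact binomial test too small for double precision to hold. In tissue RNA, more cells of a type and more RNA per cell cannot be told apart.

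Mir144, its neighbour upstream, had 183 counts in replicate 2 and 42 counts in replicate 1. The level of Mir144 was 45.6 CPM (39.3 to 52.7) in replicate 2, against 9.83 CPM (7.08 to 13.3) in replicate 1, a mean of 27.7 ± 25.3 CPM (SD, n = 2). It was 4.77-fold higher in replicate 2 (3.40 to 6.85), a log2 ratio of 2.26 (1.76 to 2.78; adjusted p = 1.32e-24, exact binomial test). Both genes of the cluster were thus higher in the same library. The intervals of their log2 ratios do not overlap, but they cover counting error only. Whether the factors differ beyond the variation between libraries was not tested, with a single library on each side.

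The balance of counts between the neighbours also differed between these libraries. Mir451a gave 94.1% (93.2 to 94.9) of the 3093 counts of the pair in replicate 2, against 82.7% (77.4 to 87.3) of 243 counts in replicate 1. For each Mir144 count there were 15.9 Mir451a counts in replicate 2 and 4.79 in replicate 1. Mir144 counts pool the 5p and 3p arms, while RefSeq lists a single mature sequence for Mir451a.

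Mir451b had 0 counts in both libraries, with 2910 reads on the opposite strand in replicate 2 and 201 in replicate 1, the same numbers that stand at Mir451a. Among the reads counted at the locus, the exact intervals allow the Mir451b strand up to 0.127% in replicate 2 and up to 1.82% in replicate 1. Reads of positions 2 to 17 of miR-451a alone, which fit both strands, are not covered by these limits. In the unstranded counts Mir451a stood at 0 in both libraries, as did Mir486 and Mir3107, because a read that falls on 2 overlapping genes is ambiguous there. Mir144, which overlaps no other gene, kept its 183 and 42 counts.

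In the reads that could be assigned to it, Mir486, in the Ank1 intron, did not follow the cluster. It had 92 counts in replicate 2 and 114 counts in replicate 1, or 22.9 CPM (18.5 to 28.1) and 26.7 CPM (22.0 to 32.0) in replicates 2 and 1, with overlapping intervals. The mean was 24.8 ± 2.64 CPM (SD, n = 2). The log2 ratio of Mir486 was -0.18 (-0.59 to 0.23; adjusted p = 0.499, exact binomial test). That interval holds no change as well as changes of up to 0.59 downwards or 0.23 upwards on the log2 scale, and it lies wholly below the intervals of Mir451a and Mir144.

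Mir3107, on the strand opposite to Mir486, was near the limit of these libraries. It had 3 counts in replicate 2 and 14 counts in replicate 1, or 0.748 CPM (0.154 to 2.19) and 3.28 CPM (1.79 to 5.50) in replicates 2 and 1. The intervals overlap between 1.79 and 2.19 CPM. Its log2 ratio was -2.09 (-4.53 to -0.25; adjusted p = 0.0261, exact binomial test) and rests on 17 counts in all. Of the reads assigned to a strand at this locus, Mir486 took 96.8% (91.0 to 99.3) of 95 in replicate 2 and 89.1% (82.3 to 93.9) of 128 in replicate 1. The plus strand thus prevailed among the assigned reads of both libraries, which leave out any read that fits both strands. Reads that fit more than 1 place in the genome are missing from all gene counts. Whether stretches of Mir486 and Mir3107 recur elsewhere, or on each other's strand, was not checked, as their sequences were not at hand. It is therefore unknown how many of their reads were lost in this way. The levels and ratios of both genes hold only for the reads assigned to them.

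**Figure D3:**
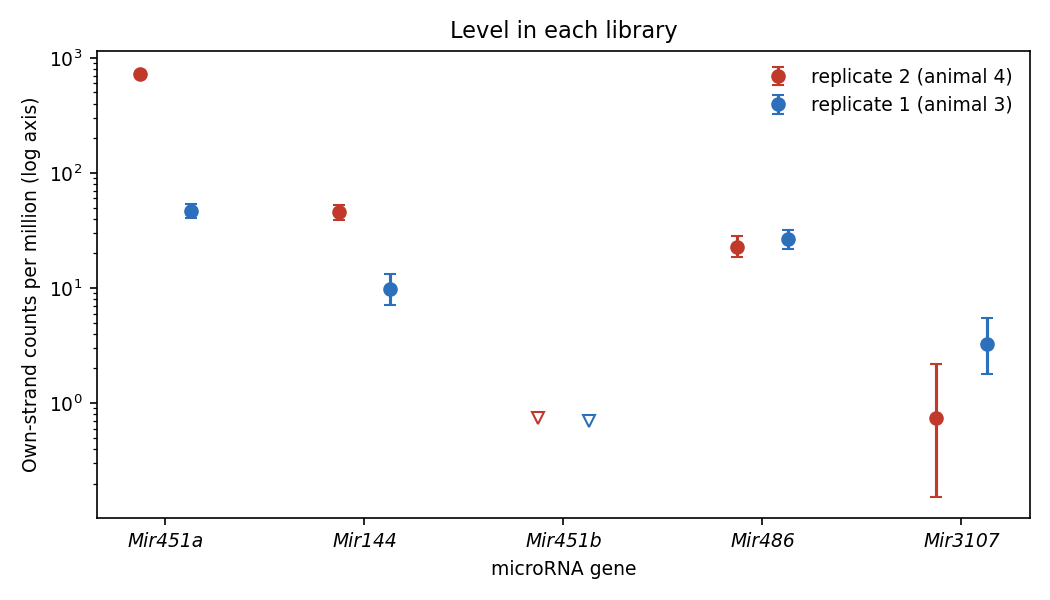
CPM (log axis) of each gene in replicate 2 (red) and replicate 1 (blue), with exact 95% intervals for counting error; open triangles mark the 3-count limit where a library had 0 counts. Mir451a stands at 726 and 47.0 CPM and Mir144 at 45.6 and 9.83 CPM in replicates 2 and 1, while the intervals of Mir486 overlap.

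By mean level of the assigned reads the order was Mir451a, Mir144, Mir486, Mir3107 and Mir451b. Any reads of Mir486 and Mir3107 that fit more than 1 place are missing from this order and from the sums and shares below. Mir144 and Mir486 did not differ beyond their spread, since Mir144 stood above Mir486 in replicate 2 and below it in replicate 1. Mir451a was higher than Mir144 within each library, with 15.9 counts for each Mir144 count in replicate 2 and 4.79 in replicate 1. The SD of each nearly equals or exceeds its mean, but it describes the spread between the libraries and not the difference between the genes. Only Mir451a and Mir486 reached 10 CPM in both libraries; Mir144 missed it in replicate 1 by a narrow margin. Together the assigned reads of the 5 genes summed to 795 CPM in replicate 2, against 86.8 CPM in replicate 1. Of these sums Mir451a made up 91.3% (90.2 to 92.2) and 54.2% (49.0 to 59.3) in that order. Without Mir451a the sum was 69.3 CPM in replicate 2, against 39.8 CPM in replicate 1.

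Of the 5 genes, 4 had enough counts to test, 2 of which were higher in replicate 2 and 1 lower. Calls were common between these libraries, with 27.5% of 516 genes called higher in replicate 2, 30.4% called lower and 57.9% called in either direction. When calls also had to reach an absolute log2 ratio of 1, 7.75% were called higher, 11.6% lower and 19.4% in either direction, and the calls of Mir451a, Mir144 and Mir3107 stood. The median log2 ratio was 1.04 over the 4 red-cell genes, whose ratios of 3.99, 2.26, -0.18 and -2.09 point in both directions. It was -0.04 over the 511 genes that had a finite ratio. A call alone therefore says little about Mir3107, and the size of the ratio is what sets Mir451a and Mir144 apart from most genes. Among the 309 genes with 100 or more counts, where the median absolute log2 ratio was 0.46, Mir451a had the highest ratio towards replicate 2 and Mir144 ranked 7. An absolute log2 ratio as large as that of Mir486 was found in 248 of these 309 genes.

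**Figure D4:**
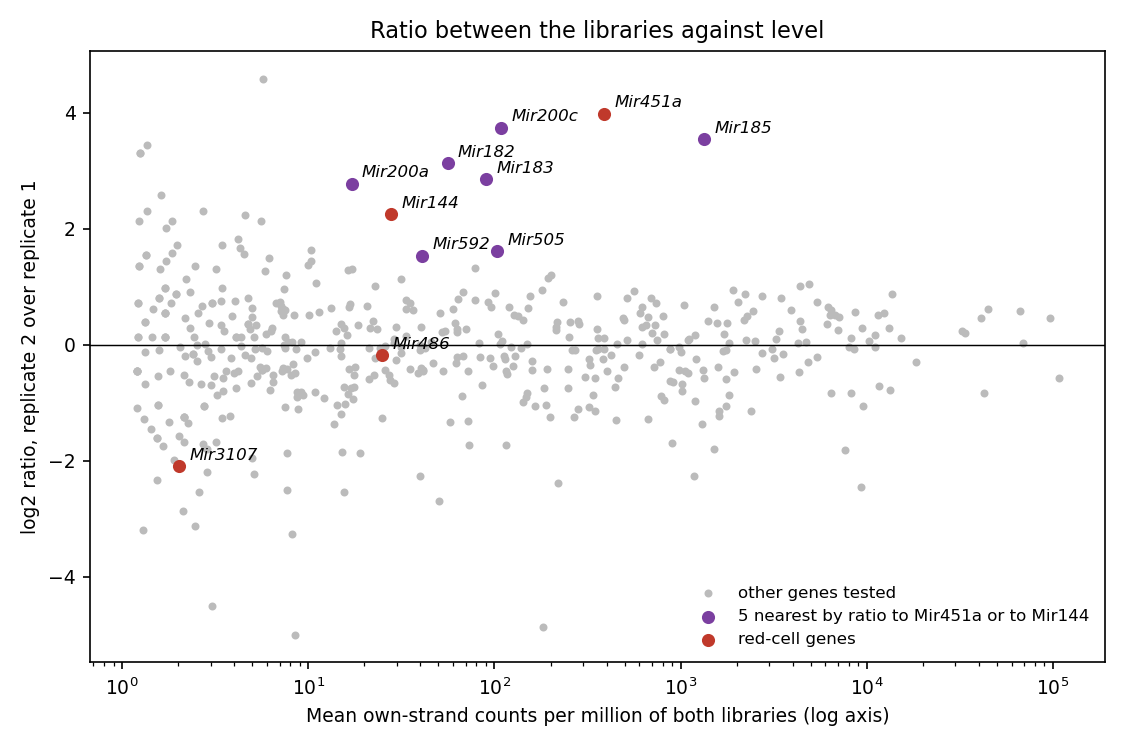
log2 ratio of replicate 2 over replicate 1 against mean CPM of both libraries (log axis) for the genes tested that had counts in both. Mir451a (3.99) and Mir144 (2.26) lie far above most genes of their level, Mir486 (-0.18) lies in the middle of them, and Mir3107 (-2.09) lies among genes of few counts.

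The genes with ratios nearest to those of Mir451a and Mir144 were then looked up among genes with 100 or more counts. A ratio over 2 libraries is a single number, so this likeness is only that of the ratio. Nearest to Mir451a were Mir200c with a log2 ratio of 3.75, Mir185 with 3.55, Mir182 with 3.14, Mir183 with 2.86 and Mir200a with 2.78. Nearest to Mir144 were Mir200a, Mir183, Mir505 with 1.62, Mir592 with 1.54 and Mir182. None of these genes lies on chromosome 11 or 8. Mir200a and Mir200c are known from epithelia. Of the same family, Mir200b was lower in replicate 2 with a log2 ratio of -0.31, and Mir429 was higher with 0.91. Mir141, also of that family, had 48 counts in replicate 2 and 0 counts in replicate 1. Mir182 and Mir183 are known from sensory organs and, like Mir185, also stand in the list of other microRNAs abundant in red cells or reticulocytes. That list was chosen with earlier results of these data known.

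Other microRNAs known to be abundant in red cells or reticulocytes went in both directions. Because their list was chosen with earlier results of these data known, its counts and median are description only. Of 18 genes tested, 8 were higher in replicate 2 and 7 lower, with a median log2 ratio of 0.13 over the 17 that had a finite ratio. The list named 20 genes, but Mir92a-1 and Mir92a-2 stand in the annotation as Mir92-1 and Mir92-2 and were missed by symbol. Their log2 ratios were -0.25 (called lower) and -0.20 (not called), and the counts and sums given for this list leave them out. Mir185, which lies in Tango2, stood at 2447 CPM in replicate 2, against 215 CPM in replicate 1. Mir182 and Mir183, at log2 ratios of 3.14 and 2.86, and Mir96 of the same cluster, with 10 counts in replicate 2 and 0 counts in replicate 1, were also higher. Mir22 was lower, at 2799 CPM in replicate 2, against 15744 CPM in replicate 1 (log2 ratio -2.45). Mir191, the highest of the list by mean level, though below Mir22 in replicate 1, had a log2 ratio of 0.29, Mir107 of 1.01 and Mir93 of 0.65. Mir16-1, of the miR-15/16 family, had 283 CPM in replicate 2, against 372 CPM in replicate 1 (log2 ratio -0.36). Mir16-1 shares its mature sequence with Mir16-2, and Mir24-1 with Mir24-2, so their counts are uncertain. Summed, the list stood at 25268 CPM in replicate 2, against 31246 CPM in replicate 1. Without Mir22 the direction turned, with sums of 22470 CPM in replicate 2, against 15502 CPM in replicate 1.

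MicroRNAs known to decline as red cells mature gave 2 higher and 3 lower genes of 5 tested. Mir221, which with Mir222 represses the stem cell factor receptor Kit, was higher in replicate 2 with a log2 ratio of 0.60, and Mir222 was lower with -0.12. Mir24-1 and Mir155 had log2 ratios of -2.69 and 0.27.

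Markers of other blood cells were not higher as a group in replicate 2. Of 7 white-cell genes tested 2 were higher in replicate 2 and 3 lower, with sums of 5359 CPM in replicate 2, against 6012 CPM in replicate 1. Most of each sum came from Mir342, at 3293 CPM in replicate 2, against 3782 CPM in replicate 1. Mir223, of neutrophils, monocytes and platelets, had 2 counts in replicate 2 and 70 counts in replicate 1, a log2 ratio of -5.00 (-8.07 to -3.09; adjusted p = 8.31e-17, exact binomial test). It thus moved against Mir451a between the same libraries. Mir142, of the blood-forming lineages, had 157 and 173 counts in replicates 2 and 1, with a log2 ratio of -0.01 (-0.33 to 0.31), and Mir142b had none. Mir342, Mir150, Mir146 and Mir155 lay within 0.27 of no change on the log2 scale. The platelet list had 3 of 3 tested genes lower in replicate 2, among them Mir21a at 394 CPM in replicate 2, against 1953 CPM in replicate 1, with Mir126b at 0 counts. With DESeq2 size factors 2 of the 3 were called lower. The platelet sums were 11194 CPM in replicate 2, against 13363 CPM in replicate 1, of which 96.5% and 85.3% came from Mir126a, which also stands in the endothelial list. Without it they were 394 CPM in replicate 2, against 1969 CPM in replicate 1. Their part in the result was not tested.

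**Figure D5:**
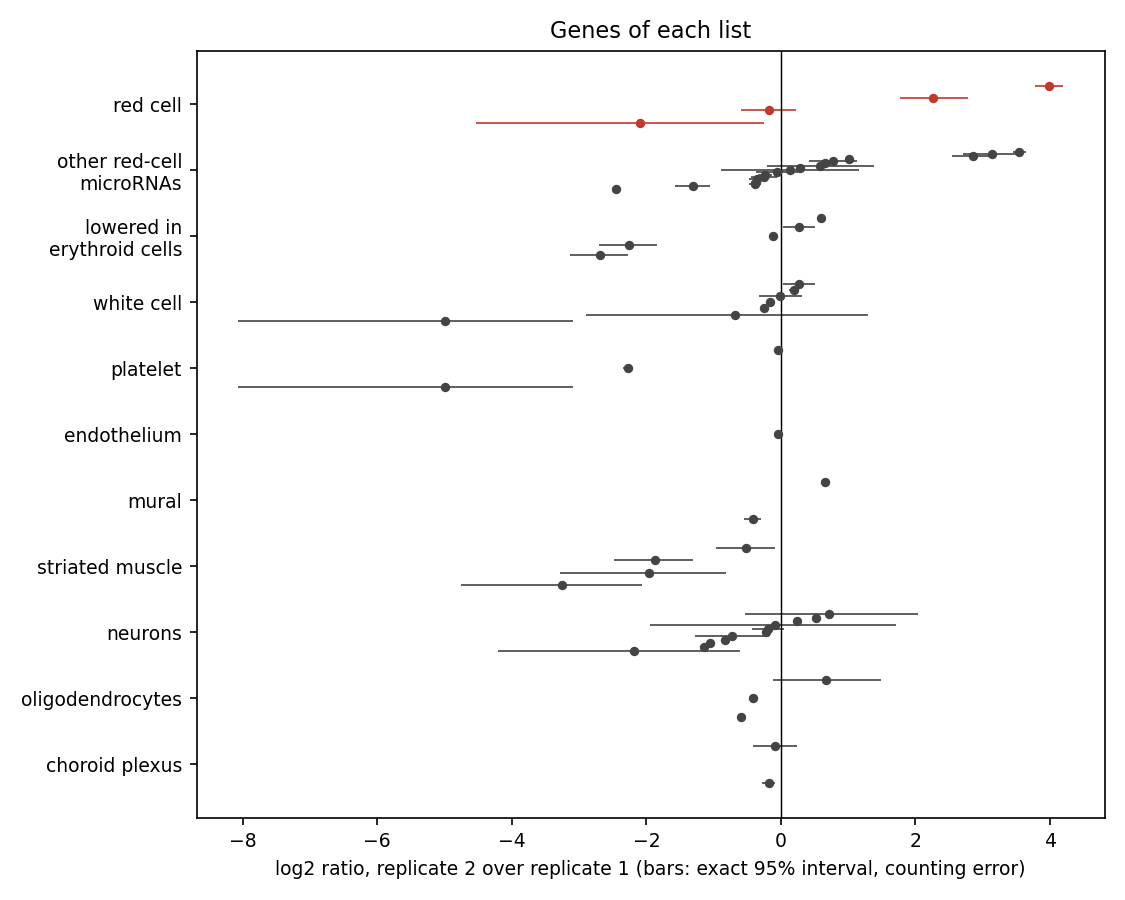
log2 ratio of replicate 2 over replicate 1 for each tested gene with counts in both libraries, by list, with exact 95% intervals for counting error. The red-cell genes (red) run from -2.09 to 3.99, and the lowest point of the white-cell and platelet lists is Mir223 at -5.00.

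Vessel markers had log2 ratios between -0.42 and 0.65. Endothelial Mir126a stood at 10799 CPM in replicate 2, against 11394 CPM in replicate 1, a log2 ratio of -0.04. Mir143 and Mir145a, of smooth muscle and pericytes, had log2 ratios of 0.65 and -0.42, and their list, with Mir145b at 0, summed to 7691 CPM in replicate 2, against 5178 CPM in replicate 1. Striated muscle, the other tissue known for miR-486, was represented by 9 genes that summed to 29.9 CPM in replicate 2, against 80.5 CPM in replicate 1. All 4 tested were lower in replicate 2, led by Mir206 with a log2 ratio of -0.52, Mir499 with -1.87 and Mir208b with -3.26, while Mir1a-1, Mir133a-2 and Mir133b were at 0. Mir1a-1 with Mir1a-2, and Mir133a-1 with Mir133a-2, share a mature sequence, so reads of theirs that fit both copies are missing, and the zeros and the muscle sum do not show that muscle microRNAs were scarce. Mir486 did not pass the test in that direction either.

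The labelled tissue was checked on markers of brain cells. The neuronal list summed to 53534 CPM in replicate 2, against 85630 CPM in replicate 1. Of 11 tested, 2 genes were higher and 6 lower in replicate 2. By level the list was led by Mir132, Mir128-1, Mir138-1 and Mir137, with Mir124a-2 at 0. Mir132 alone stood at 30022 CPM in replicate 2, against 54937 CPM in replicate 1. The oligodendrocyte list, of Mir219a-1, Mir219a-2 and Mir338, summed to 3543 and 5098 CPM in replicates 2 and 1, and the choroid plexus list, of Mir204 and Mir449a, to 428 and 497 CPM. Mir9, Mir124a, Mir128, Mir138 and Mir219a are each annotated in more than 1 copy, and reads that fit several copies are missing. The zero of Mir124a-2 and the neuronal and oligodendrocyte sums therefore do not show how much of these microRNAs the cortex held. Against the neuronal sum, most of which was Mir132, the assigned reads of the 5 red-cell genes were a small component in both libraries.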

How the data were processed

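The deposited tables, 1 per library, hold whole-number read counts per microRNA gene, not normalized by the authors. Per the text files deposited beside them, reads were mapped to mm10 with GENCODE M21 as annotation. Aligner, counter and any molecular identifiers: not given in the sources used here. Without a header, the value columns of each table were read as unstranded, own-strand and opposite-strand counts. Own-strand counts were used. Unmapped reads (20.9% and 16.7% of reads in replicates 2 and 1), multi-mapped reads (39.9% and 42.8%) and uniquely mapped reads beyond microRNA genes (4.39% and 4.56%) belong to no gene, and were left out of library totals and of every test.

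All 2202 gene identifiers matched GENCODE M21. Ratios are replicate 2 over replicate 1 against TMM effective library sizes, computed over genes with 10 or more counts (edgeR 4.0.16, R 4.3.3), with exact binomial tests adjusted over 516 genes and a threshold of 0.05. No edgeR model was fitted, since 1 group leaves no contrast. Alternatives were DESeq2 1.42.0 size factors, other totals, other minimum counts and unstranded counts. Scripts were tested on simulated counts. Structures came from RNAfold (ViennaRNA 2.7.2), and the other steps ran in Python 3.11.15 with SciPy 1.17.1, NumPy 2.4.6, Matplotlib 3.10.9 and pandas 2.3.3. The replicate numbers come from the labels. The 5 genes and the lists were chosen with earlier results of these data known. Named beside the 5 genes were the 5 nearest by ratio to Mir451a and to Mir144, the top genes of each list by level (up to 4), and overlapping or neighbouring genes within 10 kb. Mir223, Mir142, Mir142b, Mir16-1, Mir96, Mir200b, Mir429, Mir141, copies of duplicated genes and genes at 0 counts were named after their values were seen.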

Additional observations from a re-analysis of the deposited data

Results flagged for a closer look

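Some reads lie outside the gene counts and enter no comparison, and they are more than the 3 counts that an absence would allow. Of the reads of replicate 2, 39.9% were multi-mapped, against 42.8% of those of replicate 1. A further 4.39% in replicate 2, against 4.56% in replicate 1, mapped uniquely but beyond microRNA genes. At genes without an annotated partner on the other strand, 163 opposite-strand reads were counted in replicate 2, against 147 in replicate 1, and none of them fell on Mir144.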

How the results depend on the processing

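The log2 ratios of Mir451a (3.87 to 4.02), Mir144 (2.14 to 2.29), Mir486 (-0.29 to -0.14) and Mir3107 (-2.20 to -2.05) kept their direction and their side of the threshold under DESeq2 size factors, total counts, totals without the most abundant gene and all reads. Adjusted p in the exact binomial tests ran over these scalings from 0.0226 to 0.028 for Mir3107 and from 0.236 to 0.629 for Mir486. Totals without the most abundant gene shifted every log2 ratio by -0.11. With 100 or more counts required, 0 of the 5 genes were lower in replicate 2, since Mir3107 was then not tested, and 2 striated muscle genes were lower. An absolute log2 ratio of 1 or more left 40 genes higher and 60 lower among all genes. Mir155 lost its call with total counts, with totals without the most abundant gene, with all reads and with a minimum of 1 count, which left 1 gene higher in the white-cell list and 1 in the list that declines with red-cell maturation. DESeq2 size factors left 0 endothelial genes lower, since Mir126a was no longer called. In the unstranded counts Mir451a, Mir486 and Mir3107 stood at 0 CPM, so their ratios could not be computed. Scaled to all reads of the library, mean levels were lower for each gene with counts, at 135 CPM for Mir451a, 9.70 CPM for Mir144, 8.78 CPM for Mir486, 0.719 CPM for Mir3107 and 154 CPM for the sum. Chosen after seeing the data, leaving out Mir22 turned the log2 ratio of the summed list of other red-cell microRNAs to 0.58, against -0.27 with it, and leaving out Mir126a moved that of the platelet list to -2.28, against -0.22 with it. With a single library left, the level was 47.0 to 726 CPM for Mir451a, 9.83 to 45.6 CPM for Mir144, 22.9 to 26.7 CPM for Mir486, 0.748 to 3.28 CPM for Mir3107 and 86.8 to 795 CPM for their sum with Mir451b, and no ratio remains. No paired analysis was possible because there is 1 group. Depth limits Mir451b and Mir3107, and with 2 libraries the spread between animals cannot be told apart from that between library preparations.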

Other observations

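The position of miR-451a on its hairpin was rare among mouse microRNAs. Of 1559 mature microRNAs placed on RefSeq hairpins with 1 predicted terminal loop, 2 covered every base of that loop, which is 0.128%. They were miR-451a and miR-468-5p. This is a count over predicted structures and uses no read of these libraries.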
